A study of Mus musculus with 32 samples.

Results

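The injury markers described here are 10 genes that are known to mark damaged kidney tubules: Havcr1, Lcn2, Krt8, Krt18, Krt20, Vcam1, Sox9, Cd44, Spp1 and Clu. They were taken by symbol from a table of 32544 genes, and all 10 were found. The table comes from bulk RNA-Seq of the kidney cortex of 32 mice at 25 weeks of age, 4 in each of 8 groups given by sex, genotype and treatment. All mice were on the C57BL/6J background of the Col4a3tm1Dec line, and every mouse carried at least 1 mutant Col4a3 allele: control mice were Col4a3+/-, and Alport mice, which lack collagen IV α3 in all tissues, were Col4a3-/-. Vehicle-treated mice ate a purified control diet, and NR-treated mice ate the same diet with nicotinamide riboside, a precursor of NAD+, at 0.5% by weight from 10 weeks of age. The 8 groups were thus vehicle-treated and NR-treated control and Alport mice of each sex.

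When a tubule epithelial cell is injured, it loses transport functions, spreads over the bare basement membrane and re-expresses genes of the developing kidney. Some of these genes encode surface or secreted proteins that reach the urine and are measured there as markers of kidney injury, and others encode keratins, adhesion molecules and transcription factors. A cell that recovers turns them off again, whereas a cell that fails to recover keeps some of them on, together with inflammatory genes. In bulk cortex, a higher level can come from more cells that express a gene or from more RNA per cell, and these cannot be told apart.

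Total counts were 16621944–27778797 per library (median 22071395). The injury markers took 0.0806%–1.70% of them. Levels below are CPM, the counts of a gene relative to the library total scaled by TMM, and fold changes (log2FC, given with their SE) are from edgeR's quasi-likelihood test with adjusted p-values over all genes tested and a threshold of 0.05. The targeted gene itself, Col4a3, is still counted in Alport mice, at 49.0–83.7 CPM. In vehicle-treated controls it was 150–200.1 CPM in males and 139.7–162.8 CPM in females, and its log2FC in Alport mice was −1.40 ± 0.14 in males (edgeR adjusted p = 7.25e-06) and −1.19 ± 0.11 in females (edgeR adjusted p = 3.57e-05). In NR-treated male controls, however, Col4a3 was 59.0, 93.7, 74.9 and 160.3 CPM in replicates 1 to 4, so that replicates 1 and 3 lay within the range of Alport males (log2FC −0.91 ± 0.25 for NR against vehicle, edgeR adjusted p = 0.0675). In NR-treated female controls it was 104.8–123.4 CPM, below every vehicle-treated female control (log2FC −0.38 ± 0.08, edgeR adjusted p = 0.0154). The log2 ratio of Col4a3 to its neighbor Col4a4 kept the genotypes apart, at −0.90 to −0.28 in the 16 controls and −1.77 to −1.28 in the 16 Alport mice. What the Col4a3 levels of NR-treated male controls have to do with their injury markers was not tested, and the values are set beside each other below.

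In the annotation of mm10, which the submitters' processing notes name as the genome build, the 10 genes are all protein-coding. Krt8 (chr15:101996698-102004482, minus strand) and Krt18 (chr15:102028180-102032027, plus strand), which encode the keratins that pair into filaments of simple epithelia, are neighbors with 23697 bases between them. Krt20 (chr11:99428403-99438150, minus strand), Havcr1 (chr11:46735080-46779578, plus strand) and Sox9 (chr11:112782224-112787760, plus strand) share a chromosome but are far apart. Lcn2 (chr2:32384633-32388252) and Cd44 (chr2:102811141-102901665) are both on the minus strand of chromosome 2. Vcam1 lies at chr3:116109949-116129688 (minus strand), Spp1 at chr5:104435118-104441050 (plus strand) and Clu at chr14:65968483-65981547 (plus strand).

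RefSeq promoter sequences of that assembly (GRCm38.p6) were found for 7 of the 10 genes, with 10 start sites in all; Vcam1, Sox9 and Clu had none. The 250 bases before each start were searched on both strands for the motifs of 5 factors that act in injured epithelium or at core promoters: AP-1 (TGANTCA), TEAD (GGAATG), STAT (TTCNNNGAA), the TATA box (TATAAA) and NF-kB. Of 32851 mouse promoters, 6.75% held the AP-1 motif, 12.6% the TEAD motif, 7.02% the STAT motif, 12.4% the TATA box and 7.25% the NF-kB motif. Matches were found before 3 of the 10 starts, those of Krt18 and Krt20 and 1 of the starts of Spp1. The promoters of Krt18 and Krt20 are shown because these members of the keratin family hold different motifs, with matches in capitals. Krt18 holds 1 NF-kB match, 47 to 38 bases before the start, and its window is chr15:102027966-102028215 on the plus strand. Krt20 holds 3 TEAD matches, at 139 to 134 and 134 to 129 bases, which share 1 base, and on the opposite strand at 74 to 69 bases, besides a TATA box at 29 to 24 bases. Its window is chr11:99438154-99438403 on the minus strand.
Krt18: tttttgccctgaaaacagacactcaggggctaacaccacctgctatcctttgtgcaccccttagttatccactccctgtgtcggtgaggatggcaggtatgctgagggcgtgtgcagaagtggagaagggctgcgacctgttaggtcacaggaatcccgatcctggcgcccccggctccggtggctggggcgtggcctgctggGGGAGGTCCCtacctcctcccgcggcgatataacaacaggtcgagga
Krt20: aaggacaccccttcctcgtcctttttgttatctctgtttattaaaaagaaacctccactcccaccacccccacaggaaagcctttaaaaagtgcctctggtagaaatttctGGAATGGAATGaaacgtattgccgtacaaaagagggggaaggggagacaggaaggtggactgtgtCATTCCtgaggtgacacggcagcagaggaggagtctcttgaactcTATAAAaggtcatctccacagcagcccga
A match is a description of these letters and not a measured binding site. STAT and AP-1 motifs were not in any of the 10 windows.

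All 10 injury markers were higher in vehicle-treated Alport mice than in vehicle-treated control mice of the same sex, and in neither sex did any Alport mouse overlap a control mouse for any of them. Of all genes tested, 26.8% were called higher in males and 24.0% in females, and 22.3% and 20.7% were higher without overlap. The median log2FC of the 10 genes was 4.00 in males and 3.18 in females, against −0.0013 and −0.00083 for all genes. The 10 genes were chosen with earlier results of these data known, so these counts and medians are a description and not separate support. The size of the change ranged widely between the genes, from 1.52-fold for Krt8 in males to 89.2-fold for Lcn2 in males.

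**Figure D1:**
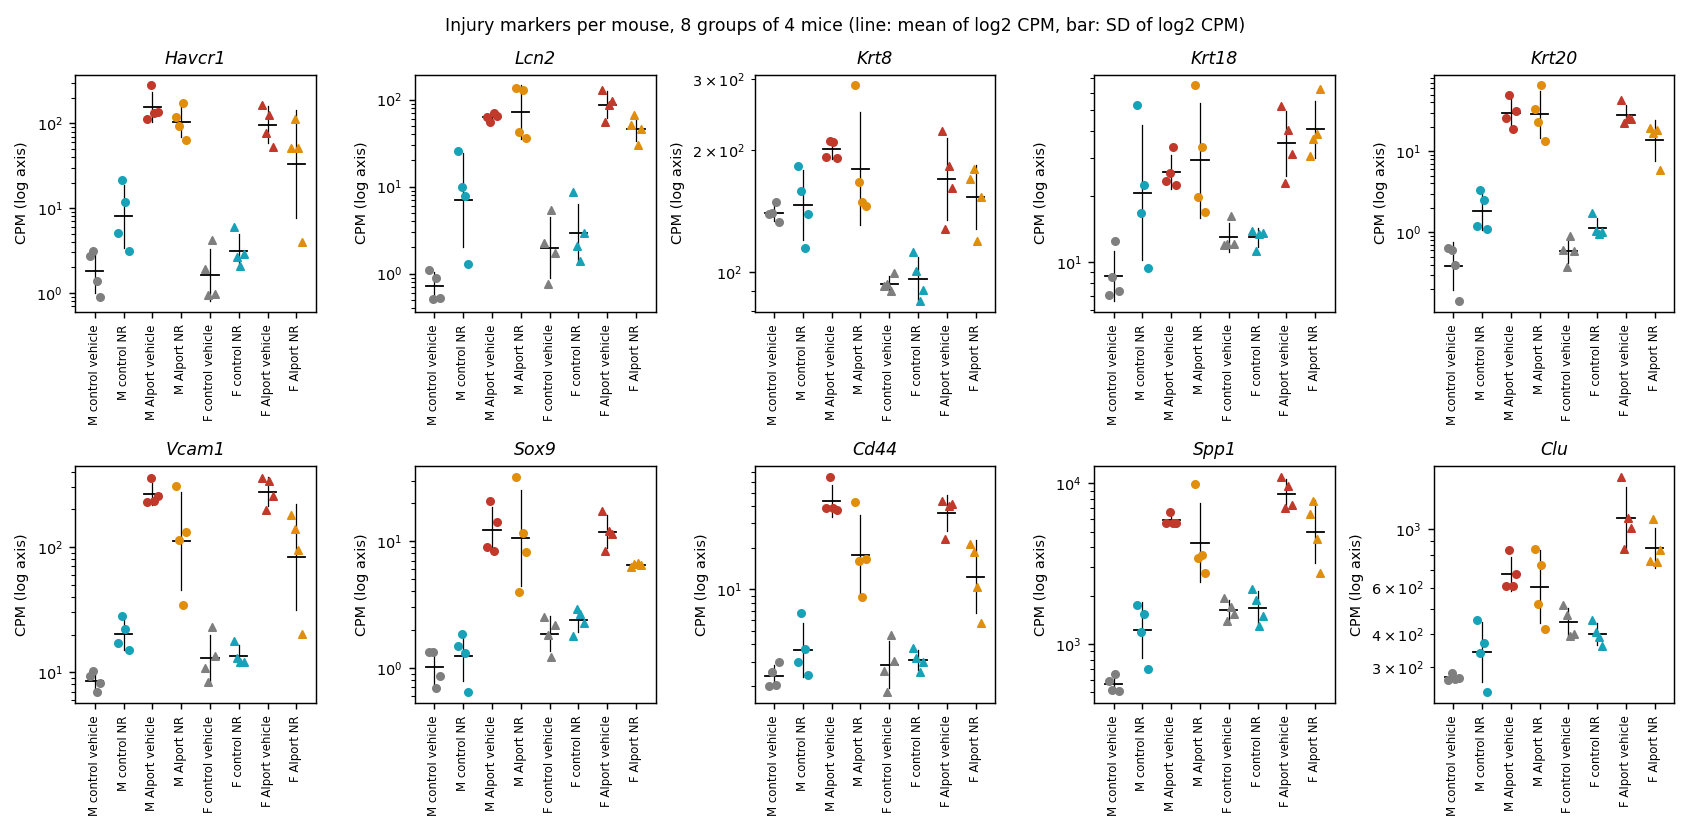
CPM (log axis) of each injury marker in every mouse, by sex (M, F), genotype and treatment; circles are male and triangles female mice, and lines and bars give the mean and SD of log2 CPM of 4 mice. Alport mice on vehicle (red) lie above controls on vehicle (gray) for all 10 genes, and NR-treated male controls (blue) reach above their vehicle-treated controls most clearly for Lcn2, Krt20, Vcam1 and Spp1.

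Havcr1 encodes KIM-1, a phosphatidylserine receptor with which injured proximal tubule cells take up dying neighbors, and Lcn2 encodes NGAL, a secreted protein that binds iron-carrying siderophores. Havcr1 was 2.70, 3.08, 1.38 and 0.904 CPM in vehicle-treated male controls and 113, 282, 131 and 135 CPM in vehicle-treated Alport males. In females it was 1.89, 0.941, 4.20 and 0.956 CPM in controls and 165, 77.7, 125 and 53.3 CPM in Alport mice. The log2FC was 6.43 ± 0.39 in males (edgeR adjusted p = 2.24e-07) and 5.74 ± 0.49 in females (edgeR adjusted p = 2.63e-05). Lcn2 was 1.11, 0.514, 0.885 and 0.523 CPM in male controls and 62.6, 55.4, 69.5 and 65.6 CPM in Alport males, a spread between Alport males of 5.97 CPM (SD). It ranked 3 of 15286 genes by p in males, with a log2FC of 6.48 ± 0.17 (edgeR adjusted p = 9.66e-10). Female controls were at 2.23, 0.753, 5.38 and 1.73 CPM and Alport females at 128, 54.7, 87.8 and 97.1 CPM (log2FC 5.21 ± 0.44, edgeR adjusted p = 2.52e-05). Neutrophils also carry Lcn2, and the sum of 11 neutrophil markers was 3.69–6.66 CPM in vehicle-treated controls of both sexes and 6.74–14.7 CPM in vehicle-treated Alport mice. Ly6g and Elane had 0 counts in 29 and 30 of 32 mice. Cxcr2 (2.99 CPM) and Csf3r (1.27 CPM) had the highest medians of the 11 and weigh most in the sum. The part of neutrophils in the Lcn2 level was not tested.

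The keratins differed among themselves. Krt8 and Krt18 are present in healthy collecting duct and distal tubules, and Krt20 is a keratin of urothelium and gut that healthy tubules hardly express. Krt8 rose from 133–149 CPM in vehicle-treated male controls to 191–211 CPM in Alport males (log2FC 0.60 ± 0.07, edgeR adjusted p = 3.74e-05), and in females from 89.9–99.4 to 128–223 CPM (0.93 ± 0.14, edgeR adjusted p = 0.000422). Krt18 rose from 7.05–12.5 to 22.5–33.7 CPM in males (1.66 ± 0.19, edgeR adjusted p = 2.18e-05) and from 11.9–16.2 to 23.0–52.0 CPM in females (1.52 ± 0.22, edgeR adjusted p = 0.00036). Krt20 was 0.636, 0.600, 0.393 and 0.143 CPM in male controls, which rests on 3 to 14 counts a library, and 26.0, 50.1, 18.8 and 31.3 CPM in Alport males. Female controls had 0.602, 0.376, 0.903 and 0.592 CPM of Krt20, and Alport females 42.9, 22.2, 25.9 and 25.0 CPM. These are 74.4-fold in males (log2FC 6.22 ± 0.39, edgeR adjusted p = 2.72e-07) and 47.9-fold in females (5.58 ± 0.29, edgeR adjusted p = 6.26e-06). The summed CPM of 9 urothelium markers was 0.713–2.14 in male and 2.02–3.49 in female vehicle-treated controls. In vehicle-treated Alport mice it was 2.28–15.6 in males (mean 6.11, SD 6.37) and 3.72–5.66 in females. Upk2 and Upk3a had 0 counts in 25 and 18 of 32 mice. The part of urothelium in the Krt20 level was not tested.

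Vcam1 encodes an adhesion molecule to which leukocytes bind, and Cd44 encodes a receptor for hyaluronan. Vcam1 was 9.33, 10.1, 6.93 and 8.23 CPM in male controls and 228, 354, 236 and 257 CPM in Alport males, 32.7-fold higher (log2FC 5.03 ± 0.17, edgeR adjusted p = 6.07e-09). In females it was 10.9, 8.32, 23.0 and 13.4 CPM in controls and 356, 196, 336 and 254 CPM in Alport mice (4.39 ± 0.32, edgeR adjusted p = 1.37e-05). Cd44 rose from 2.01–3.0 to 37.4–65.2 CPM in males (4.31 ± 0.22, edgeR adjusted p = 5.50e-08) and from 1.81–4.67 to 22.9–43.5 CPM in females (3.64 ± 0.28, edgeR adjusted p = 1.85e-05). Leukocytes carry Cd44 and activated endothelium carries Vcam1. The summed CPM of 12 macrophage markers was 82.9–104 in male controls and 582–795 in Alport males, and 99.8–177 and 454–813 in females. For 12 endothelial markers the sums were 506–564 and 711–872 in males and 577–779 and 752–809 in females. How much these cells add to the levels of Vcam1 and Cd44 was not tested.

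Sox9, a transcription factor of kidney development that marks regenerating tubule cells, rose from 0.688–1.33 to 8.40–20.5 CPM in males (log2FC 3.70 ± 0.33, edgeR adjusted p = 3.85e-06) and from 1.22–2.49 to 8.30–17.2 CPM in females (2.71 ± 0.26, edgeR adjusted p = 4.07e-05). Spp1 encodes osteopontin, a secreted matrix protein that draws macrophages, and Clu encodes clusterin, a secreted chaperone. Spp1 was 587, 515, 652 and 513 CPM in male controls and 5686, 6678, 5643 and 5640 CPM in Alport males (3.46 ± 0.14, edgeR adjusted p = 1.46e-08). Female controls already had 1939, 1393, 1708 and 1542 CPM of Spp1, and Alport females had 11019, 7002, 9648 and 7374 CPM (2.45 ± 0.18, edgeR adjusted p = 1.46e-05). Clu rose 2.63-fold in males (1.40 ± 0.11, edgeR adjusted p = 1.21e-06) and 2.62-fold in females (1.39 ± 0.18, edgeR adjusted p = 0.000187).

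Other genes known from injured tubules moved in the same comparison. Of a list of 40 injury genes, 38 rose and 1 fell in males (median log2FC 2.03), and 36 rose and 1 fell in females (median 1.75). Among all genes tested, 26.8% were called higher in males and 24.0% in females. The lists were chosen with earlier results of these data known, so their counts are a description and not separate support. Timp1, an inhibitor of matrix metalloproteinases, rose by a log2FC of 7.08 ± 0.31 in males and 5.33 ± 0.37 in females, Krt19 by 4.93 ± 0.34 and 3.41 ± 0.33, and Cxcl1, a chemokine that draws neutrophils, by 4.45 ± 0.37 and 4.74 ± 0.43 (edgeR adjusted p of 4.18e-05 or less for each). The gene that fell in both sexes was Itgb8, an integrin subunit, by 0.47 in males and 0.46 in females on the log2 scale. Of 16 NF-kB and inflammatory response genes, 16 rose in males and 15 in females, led by Cxcl2 at a log2FC of 7.79 ± 0.62 and 5.61 ± 0.36 (edgeR adjusted p = 1.45e-06 and 9.53e-06). Of 16 AP-1 and SOX9 partner factors, 15 rose in each sex, among them Atf3 at 3.97 ± 0.41 and 2.66 ± 0.21 and Runx1 at 3.53 ± 0.27 and 3.16 ± 0.22 (edgeR adjusted p of 1.91e-05 or less). Some genes are on more than one of these lists. Over the 32 mice Cxcl2 was 0–5.58 CPM (median 0.301), with 0 counts in 4 mice. Timp1 was 0.0428–31.1 CPM (median 1.73) and Cxcl1 0.113–25.0 CPM (median 2.45). Such low levels limit the precision of the folds of these genes.

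The markers of other cells moved as well. All 20 proximal tubule markers fell in males and 18 of 20 fell in females, where 1 rose, and their summed CPM was 46165–49825 in male controls and 15507–26870 in Alport males. In males, 12 of 12 macrophage markers rose, as did 11 of 11 lymphocyte markers tested, 11 of 12 endothelial, 11 of 11 fibroblast and myofibroblast, 9 of 10 podocyte and 3 of 5 parietal epithelium markers, of which 1 other fell. Among 12 loop of Henle and distal tubule markers 8 fell, and among 11 collecting duct markers 6 fell, where 24.2% of all genes were called lower. Only 2 urothelium and 2 neutrophil markers were high enough to be tested in males, and 1 of each rose, while 1 neutrophil marker fell. In females, 11 of 12 macrophage, 9 of 11 lymphocyte, 6 of 12 endothelial, 10 of 11 fibroblast and myofibroblast, 8 of 10 podocyte, 3 of 5 parietal epithelium, 2 of 4 urothelium and 1 of 2 neutrophil markers rose, and 8 of 12 loop of Henle and distal tubule and 5 of 11 collecting duct markers fell, where 21.8% of all genes were called lower. Called higher were 26.8% of all genes in males and 24.0% in females. The share of each cell type in these values was not tested.

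**Figure D2:**
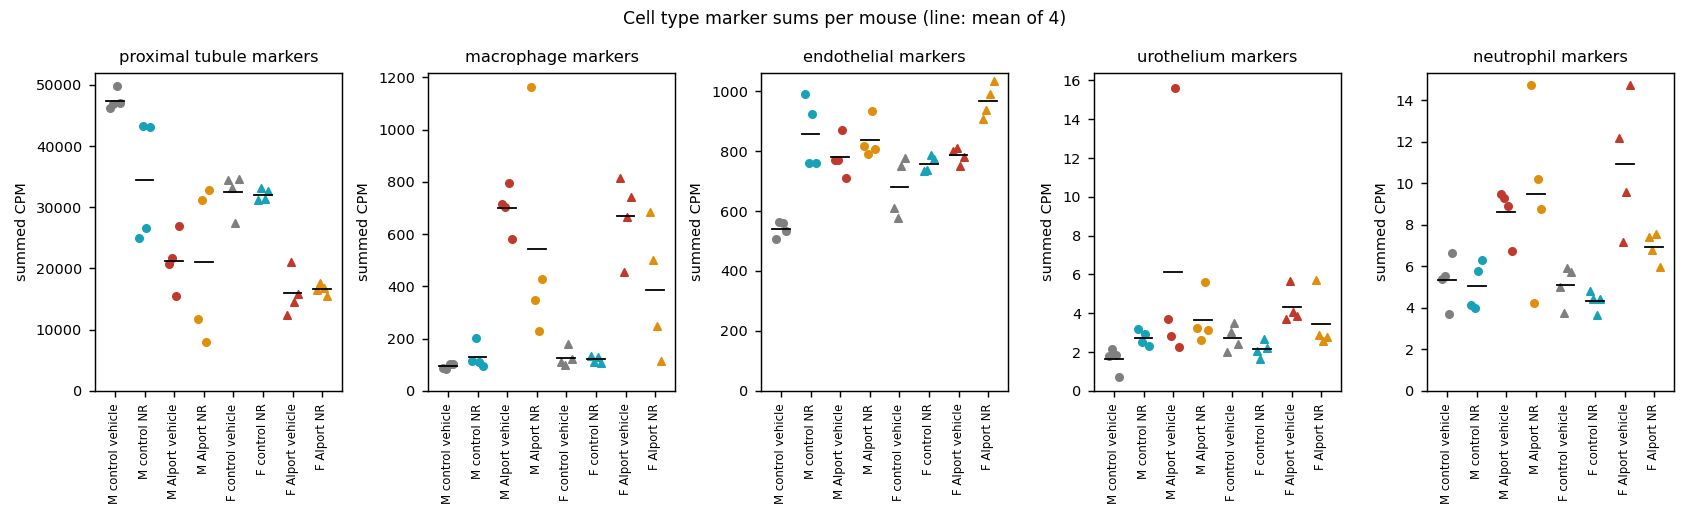
Summed CPM of the markers of 5 cell types in every mouse (linear axes from 0, line at the mean of 4 mice, circles male, triangles female). Abundant genes weigh most in each sum. Macrophage sums are 582–795 CPM in Alport males on vehicle against 82.9–104 CPM in their controls, and NR-treated male controls split into 2 mice with proximal tubule sums of 24964 and 26671 CPM and 2 with 43062 and 43243 CPM.

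The sexes were then compared. In vehicle-treated controls, 6 of the 10 genes differed between females and males, where 31.7% of all genes were called. Spp1 was 2.95-fold higher in females (log2FC 1.56 ± 0.11, edgeR adjusted p = 1.83e-06) and Clu 1.65-fold higher (0.72 ± 0.09, edgeR adjusted p = 9.50e-05), both without overlap. Krt8 was lower in females (−0.56 ± 0.06, edgeR adjusted p = 6.12e-05), also without overlap. In either direction, 32.1% of all genes did not overlap between the sexes. Lcn2 (1.77 ± 0.54, edgeR adjusted p = 0.026), Krt18 (0.59 ± 0.18, edgeR adjusted p = 0.0275) and Sox9 (0.89 ± 0.31, edgeR adjusted p = 0.0469) were called higher in females, with overlapping mice. Without female control replicate 3, in which Lcn2 was 5.38 CPM, Lcn2 was at 1.07 (edgeR adjusted p = 0.0889), and without male control replicate 4 only 3 of the 10 genes were called.

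Among vehicle-treated Alport mice, 0 of the 10 genes were called between the sexes by edgeR, with 3 at an unadjusted p under 0.05 and 2 called by DESeq2, where edgeR called 3.84% of all genes and gave 19.6% an unadjusted p under 0.05. Spp1 (log2FC 0.56 ± 0.19, edgeR adjusted p = 0.126) and Clu (0.73 ± 0.19, edgeR adjusted p = 0.0569) were higher in every Alport female than in every Alport male, as were 6.28% of all genes. Without female Alport replicate 2, edgeR called 2 of the 10, Lcn2 and Clu. Shares of all genes for DESeq2 and for this fit are not given here.

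The sex-genotype interaction asks whether the change from control to Alport differs between the sexes. Spp1 passed, with a change smaller in females by a log2 of −1.05 ± 0.21 (edgeR adjusted p = 0.0359), and it also passed the 2-fold limit that the study set for this interaction. Of all genes, 0.532% passed the threshold and 0.285% passed both. Lcn2 (−1.30 ± 0.61, edgeR adjusted p = 0.41) and Sox9 (−1.02 ± 0.45, edgeR adjusted p = 0.373) had values of the same size but did not pass. The Spp1 call was kept in 6 of 16 fits that left out 1 mouse, with adjusted p of 0.0221–0.0826, and was lost without male control replicates 1, 2 or 4, male Alport replicates 1 to 3, female control replicates 1, 3 or 4, or female Alport replicate 4. It was also lost with RLE size factors (adjusted p = 0.0532) and with 1 fit of all 32 mice (adjusted p = 0.842). Of the listed injury genes, Cdh6, a cadherin of the early proximal tubule, and Prom1, a surface protein of progenitor cells, passed as well, at −1.87 ± 0.35 and −0.91 ± 0.17 (edgeR adjusted p = 0.0289 and 0.028).

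The effect of NR was measured in Alport mice of each sex. In males, 0 of the 10 genes were called by edgeR or DESeq2, and edgeR called 0 of 15500 genes, with 785 (5.06%) at an unadjusted p under 0.05, while DESeq2 called 68 genes. The 10 genes had a median log2FC of −0.12 against 0.014 for all genes, with 4 above 0 and 6 below. The largest difference among the 10 was that of Cd44, at 38.8, 65.2, 38.7 and 37.4 CPM on vehicle and 42.9, 16.1, 8.82 and 16.6 CPM on NR (log2FC −1.11 ± 0.43, edgeR adjusted p = 0.939). NR replicate 1 stood apart from the other NR-treated Alport males: it was the highest of its group for 8 of the 10 genes, with 9866 CPM of Spp1 against 2765–3596 CPM, 32.2 CPM of Sox9 against 3.94–11.7 CPM and 305 CPM of Vcam1 against 34.1–131 CPM. Its macrophage marker sum was 1162 CPM, against 228–429 CPM in the other NR-treated Alport males. Without this mouse, edgeR called Cd44 (−1.72, adjusted p = 0.0309) and 380 genes in all.

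In NR-treated Alport females, 0 of the 10 genes were called by edgeR, where 0.477% of all genes were, and DESeq2 called 3, Lcn2, Sox9 and Cd44. The 10 genes had a median log2FC of −0.90 against 0.00049 for all genes, and 6 had an unadjusted p under 0.05 in the lower direction, against 7.59% of all genes. Krt20, Vcam1, Sox9 and Cd44 were lower in every NR-treated than in every vehicle-treated Alport female, which held for 3.95% of all genes. Cd44 was 43.5, 22.9, 40.1 and 41.0 CPM on vehicle and 21.3, 18.4, 10.4 and 5.69 CPM on NR (−1.40 ± 0.36, edgeR adjusted p = 0.126). Sox9 was 17.2, 8.30, 11.9 and 11.4 CPM on vehicle and 6.20, 6.59, 6.75 and 6.51 CPM on NR (−0.90 ± 0.20, edgeR adjusted p = 0.0963), and it was called without vehicle replicate 2 (adjusted p = 0.0393). The 4 NR values of Sox9 lay within 0.549 CPM of each other.

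Krt20 was 42.9, 22.2, 25.9 and 25.0 CPM in vehicle-treated and 19.4, 16.6, 18.4 and 5.80 CPM in NR-treated Alport females (log2FC −0.94 ± 0.34, edgeR adjusted p = 0.216). Vcam1 was 356, 196, 336 and 254 CPM on vehicle and 181, 140, 94.0 and 20.2 CPM on NR (−1.39 ± 0.50, edgeR adjusted p = 0.222). NR replicate 4 was low for several genes, with 3.94 CPM of Havcr1 where the other 3 mice had 51.9–114 CPM, but it had the highest Krt18 of its group, 62.7 CPM. Macrophage marker sums were 454–813 CPM on vehicle and 683, 501, 250 and 115 CPM on NR, lowest in the same mouse. Of the 40 injury genes, 0 were called by edgeR in Alport mice of either sex, and 3 in males and 13 in females had an unadjusted p under 0.05, against 5.06% and 16.7% of all genes. The 2 with the smallest p in females were Hmox1, heme oxygenase 1, at 1.27 ± 0.25 (adjusted p = 0.0725) and Prom1 at −0.46 ± 0.09 (adjusted p = 0.0741).

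With both sexes fitted together and sex as a covariate, Cd44 was the only one of the 10 genes called (log2FC −1.24 ± 0.30, edgeR adjusted p = 0.0469), where 1.48% of all genes were called. Vcam1 was at −1.13 ± 0.39 (edgeR adjusted p = 0.14). The Cd44 call was kept in 3 of 16 fits that left out 1 mouse (adjusted p 0.00209–0.107), those without male NR replicate 1, female vehicle replicate 2 or female NR replicate 1. Without male NR replicate 1, edgeR called 4 of the 10 genes, Vcam1 (−1.44), Sox9 (−0.79), Cd44 (−1.53) and Spp1 (−0.76), all lower, and 2535 genes in all, against 239 with every mouse.

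**Figure D3:**
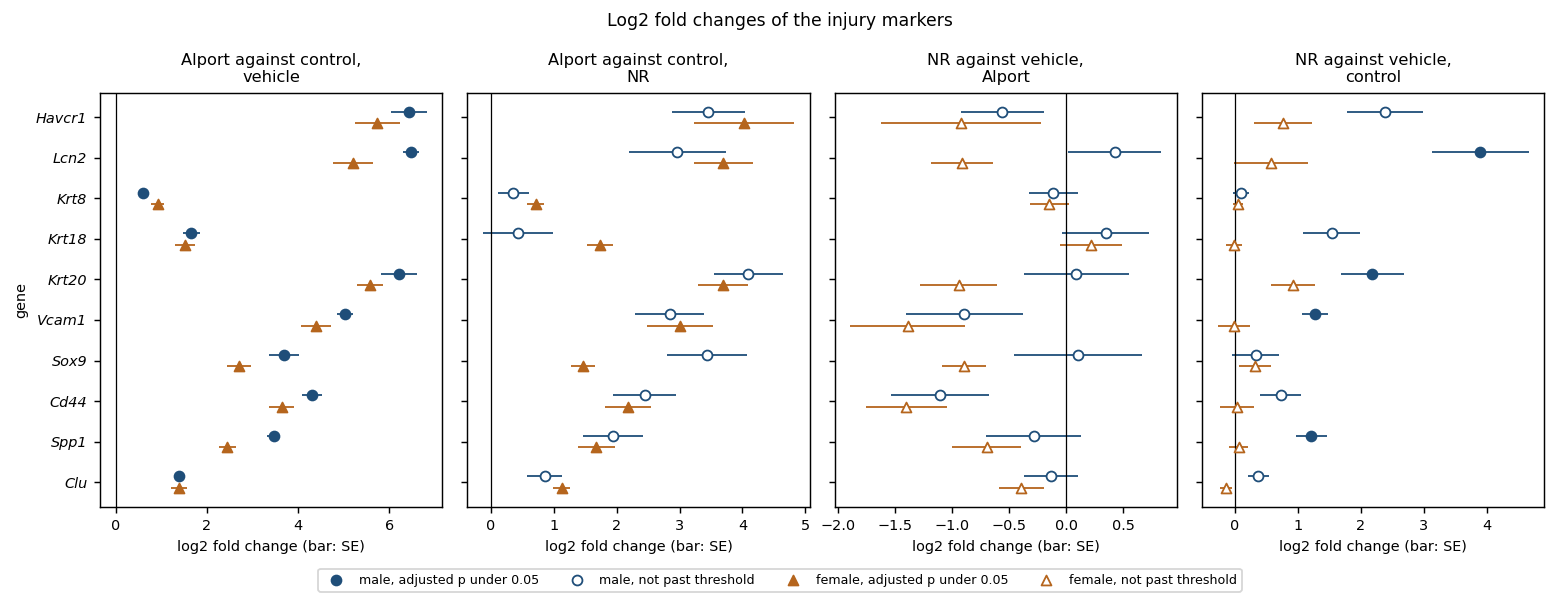
Log2 fold changes of the injury markers with their SE in 4 comparisons, males as circles and females as triangles (filled: edgeR adjusted p under 0.05; the x axes differ in range). The first panel is filled for all 10 genes in both sexes, and the last is filled for Lcn2, Krt20, Vcam1 and Spp1 in males alone; whether NR differs between the sexes in controls was not tested.

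NR was also given to control mice. In NR-treated male controls, 4 of the 10 genes were higher than in vehicle-treated male controls, Lcn2, Krt20, Vcam1 and Spp1, where 3.07% of all genes were called higher. These 4 and Havcr1 did not overlap between the groups, against 7.37% of all genes in that direction, and the median log2FC of the 10 was 1.24, against −0.00022 for all genes. Lcn2 was 1.11, 0.514, 0.885 and 0.523 CPM on vehicle and 25.7, 9.79, 7.72 and 1.28 CPM on NR (3.90 ± 0.77, edgeR adjusted p = 0.0253). Krt20 was 0.143–0.636 CPM on vehicle and 1.20, 3.28, 2.49 and 1.10 CPM on NR (2.18 ± 0.50, edgeR adjusted p = 0.0383). All 4 NR-treated mice were above all 4 vehicle-treated mice for both genes, and both groups stayed below every vehicle-treated Alport male.

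Vcam1 was 6.93–10.1 CPM on vehicle and 17.2, 28.3, 22.2 and 14.9 CPM on NR in male controls (log2FC 1.26 ± 0.21, edgeR adjusted p = 0.0146). Spp1 was 513–652 CPM on vehicle and 1752, 1186, 1535 and 702 CPM on NR (1.21 ± 0.25, edgeR adjusted p = 0.0279). Havcr1, at 5.10, 21.7, 11.9 and 3.12 CPM on NR, missed the threshold (2.38 ± 0.60, edgeR adjusted p = 0.0514), as did Krt18 at 52.8, 16.8, 22.6 and 9.41 CPM (1.54 ± 0.45, edgeR adjusted p = 0.0812). NR-treated replicate 4 was the lowest of its group for 9 of the 10 genes. It was also the mouse of that group with the highest Col4a3, 160.3 CPM against 59.0–93.7 CPM. The other mice of the group had no such order. Replicates 1 and 2, with 59.0 and 93.7 CPM of Col4a3, were each the highest for 5 of the 10 genes. Replicate 3, with 74.9 CPM, was the highest for 0.

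In the same mice, proximal tubule marker sums were 24964, 43243, 26671 and 43062 CPM, against 46165–49825 CPM on vehicle, and endothelial marker sums were 991, 760, 923 and 759 CPM, against 506–564 CPM, with 9 of 10 endothelial markers tested called higher. Abundant genes weigh most in such sums: over the 32 mice, Kap spans 6.97–13295 CPM and Pck1 820–9912 CPM. Of 20 proximal tubule markers, 9 had an unadjusted p under 0.05 by edgeR, against 23.1% of all genes. Macrophage sums were 114, 201, 109 and 94.8 CPM against 82.9–104 CPM. Of 39 injury genes tested, 9 rose and 1 fell, where 3.07% of all genes were called higher and 1.46% lower. Atf3, a stress-induced transcription factor, rose by a log2FC of 3.12 ± 0.74 (edgeR adjusted p = 0.0435) and Timp1 by 2.92 ± 0.52 (edgeR adjusted p = 0.019), and Il34, a ligand of the macrophage receptor CSF1R, fell by 1.30 on the log2 scale (edgeR adjusted p = 0.0307). The part of these cell markers in the levels of the 10 genes was not tested.

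The number of the 10 genes called in NR-treated male controls moved with single mice. Without vehicle replicate 1 or 4 it was 0, without vehicle replicate 2 or NR replicate 3 it was 1, without vehicle replicate 3 or NR replicate 1 it was 2, without NR replicate 2 it was 3, and without NR replicate 4 it was 7. The genes called in all moved too, from 74 without vehicle replicate 1 to 1886 without NR replicate 4, against 666 with every mouse. DESeq2 called 6, adding Havcr1 and Krt18, and limma-voom called 2, Vcam1 and Spp1. The fit of all 32 mice called 4, with Krt18 (edgeR adjusted p = 0.0217) in place of Vcam1 (edgeR adjusted p = 0.129). Counts over all genes by these alternatives are not given here, so their counts describe the 10 genes alone. The log2FC of the 4 genes called with every mouse stayed positive in all 8 fits without 1 mouse, from 3.06 to 4.28 for Lcn2, 1.85 to 2.40 for Krt20, 1.07 to 1.40 for Vcam1 and 1.02 to 1.42 for Spp1. In NR-treated female controls, 0 of the 10 genes were called by edgeR or DESeq2, where edgeR called 6.18% of all genes, and 1 had an unadjusted p under 0.05, against 22.8% of all genes. That gene, Krt20, was 0.602, 0.376, 0.903 and 0.592 CPM on vehicle and 1.73, 1.03, 0.946 and 1.0 CPM on NR, higher without overlap like 8.05% of all genes (0.92 ± 0.35, edgeR adjusted p = 0.134).

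The change from control to Alport was also measured among NR-treated mice. In females, 10 of 10 genes were called higher, where 14.4% of all genes were, and 9 were higher without overlap, against 13.1% of all genes. The exception was Havcr1, for which Alport female NR replicate 4, at 3.94 CPM, lay within the 2.08–6.02 CPM of controls. The median log2FC was 1.96, and limma-voom called 9, all but Havcr1 (adjusted p = 0.159). In males, 0 of the 10 genes and 0 of 14884 genes were called by edgeR, where 8 of the 10 and 21.6% of all genes had an unadjusted p under 0.05, and 7 of the 10 did not overlap, against 7.73% of all genes in that direction. DESeq2, and edgeR with 1 fit of all 32 mice, each called 8 of the 10. Krt20 was 1.10–3.28 CPM in NR-treated male controls and 13.4–65.2 CPM in NR-treated Alport males (log2FC 4.09 ± 0.55, edgeR adjusted p = 0.0735), and Krt18 overlapped widely, at 9.41–52.8 and 16.9–64.9 CPM (0.43 ± 0.55, edgeR adjusted p = 0.659).

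The interaction of NR and genotype, which asks whether NR acts differently in Alport and control mice, called 0 of the 10 genes in either sex by edgeR or DESeq2, and edgeR called 0 of 15800 genes in males and 0 of 16064 in females, where 1398 and 1521 genes had an unadjusted p under 0.05. In each sex 6 of the 10 had an unadjusted p under 0.05 in the lower direction, against 6.27% of all genes in males and 4.81% in females. Krt20 in females was higher on NR in controls and lower on NR in Alport mice, without overlap in either genotype, and its interaction was −1.90 ± 0.56 (edgeR adjusted p = 0.396). Without male Alport NR replicate 1, edgeR called 5 of the 10 in males, Havcr1, Lcn2, Vcam1, Cd44 and Spp1, and 782 genes in all.

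The order of the 8 group means showed where neighbors in level were distinct. Neighbors were apart without overlap at 11 of the 70 steps between adjoining groups. The same share over all genes was not computed, so this count describes the 10 genes alone. Of these steps, 2 were for Sox9 and 1 each for Lcn2, Krt8 and Vcam1. For Krt20, Alport females on vehicle were above Alport females on NR, these above male controls on NR, and female controls on NR above female controls on vehicle, without overlap at each step. For Spp1, Alport females on vehicle were above Alport males on vehicle, Alport males on NR above female controls on NR, and male controls on NR above male controls on vehicle. Havcr1, Krt18, Cd44 and Clu had no such gap between any neighbors. Krt8 was the only one of the 10 genes in which both male control groups lay above both female control groups.

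**Figure D4:**
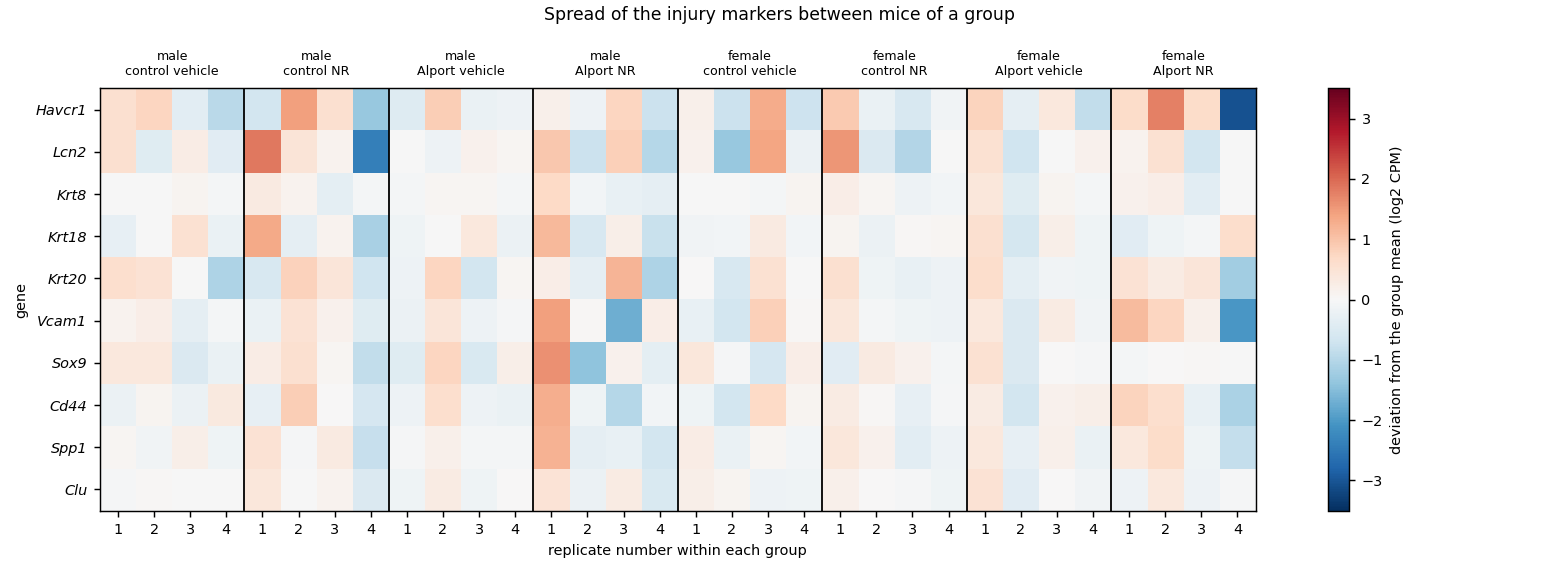
Deviation of each mouse from the mean of its group (log2 CPM, color) for the 10 injury markers; columns are the 4 replicates of each group. Male control NR replicate 4 is the lowest of its group for 9 genes, male Alport NR replicate 1 is the highest for 8, and female Alport vehicle replicate 1 is the highest for 10.

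Mice of a group tended to be high or low for several of the genes at once. Female Alport vehicle replicate 1 was the highest of its group for 10 of the 10 genes and replicate 2 the lowest for 9. Male Alport vehicle replicate 2 was the highest for 8, and female control NR replicate 1 for 9. As a description over 32 mice that share group and cortex make-up, Pearson's r of log2 CPM was 0.521–0.987 over the 45 pairs (median 0.854). For deviations from the group means it was 0.00575–0.909 (median 0.471). Vcam1 and Cd44 were most alike by both measures (0.987 and 0.909), followed by Havcr1 and Krt20 (0.972 and 0.838).

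**Figure D5:**
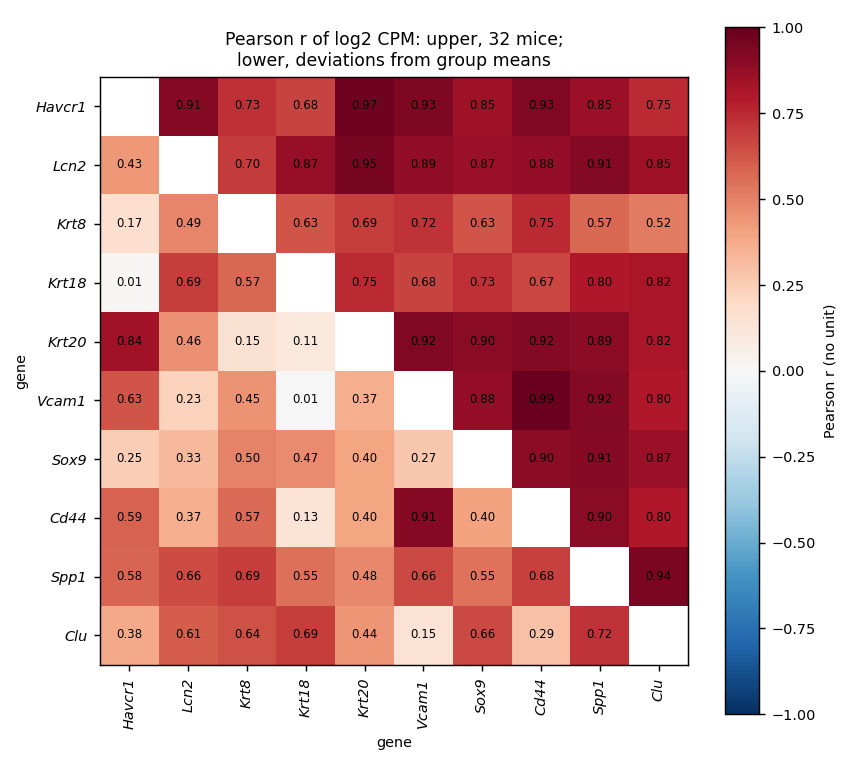
Pearson's r of log2 CPM between the injury markers over 32 mice (upper right) and of deviations from the group means (lower left). Vcam1 and Cd44 reach 0.987 and 0.909, and Havcr1 and Krt20 reach 0.972 and 0.838.

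The genes outside the 10 with the most similar pattern, among 12828 genes with a mean log2 CPM of at least 1, differed between the injury markers. Over the 32 mice, Vcam1 and Cd44 had the same 2 nearest genes, Icam1, another leukocyte adhesion molecule, and Aoc1, an amine oxidase (r of 0.982 to 0.988). Lcn2 was nearest to Socs3, a feedback inhibitor of cytokine signaling (0.970), and Litaf (0.969), and Cldn4, a tight junction claudin, was among the 2 nearest to Krt18 (0.937). Spp1 was nearest to Tmem98 (0.980) and B4galnt1 (0.976), Krt20 to Serpina3n (0.955) and Grem1 (0.954), Havcr1 to H2-D1 (0.942) and Runx1 (0.941), Sox9 to Lgals3bp (0.942) and Birc3 (0.937), Clu to Cd9 (0.937) and Jak3 (0.936), and Krt8 to Bok (0.891) and Cd47 (0.890).

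Within groups the nearest genes were others. Vcam1 was nearest to C1qb (0.922) and Slamf9 (0.921) and Cd44 to Il10ra (0.932) and Ccl9 (0.916), which are genes of macrophages or other leukocytes. Krt18 was nearest to Krt19 (0.902), Havcr1 to Cldn1, a tight junction claudin (0.815), and Abca1 (0.764), and Lcn2 to Muc1, an epithelial mucin (0.812). Sox9 was nearest to Pdgfa (0.776) and Sfn (0.771), Clu to Sfn (0.839) and Anapc2 (0.815), Spp1 to Efemp2 (0.867) and Adgra2 (0.864), Krt8 to Adgrg6 (0.834) and Smtnl2, and Krt20 to Smox (0.725) and Cstb (0.680).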

How the data were processed

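Kidney cortex RNA was isolated on spin columns and poly(A) libraries were sequenced by a service provider. The authors processed the reads with BioJupies and deposited raw counts by symbol for each mouse, while log10(CPM + 1) values deposited beside them were used only for the order of groups. The build is mm10 per the submitters' processing notes, and the aligner, annotation and strand are not given in the sources used here, so reads of overlapping, antisense or near-identical genes (Krt8 has a pseudogene) cannot be told apart.

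The 10 genes and the lists were chosen with earlier results of these data known. The test was edgeR's quasi-likelihood F test (edgeR 4.0.16, R 4.3.3) after filterByExpr at a minimum count of 10 and TMM scaling, with only the mice of a comparison, Benjamini-Hochberg adjustment over all genes tested and a threshold of 0.05. SE is the log2FC divided by the root of F. CPM and log2 CPM (prior count 2) use TMM factors of all 32 mice (0.828–1.25), computed from the deposited counts. Mice are the replicates. In 48 pairs of mice of a group, counts differed by more than sampling gives (chi-square per gene of 7.56 or more). All 10 genes passed the filter in each comparison. Named were all 10 genes, at most 3 genes per list and comparison with the largest change past the threshold (if none, the 2 with the smallest p), and the 2 nearest genes per injury marker, except 1 gene that is not reported here; Itgb8 was named after its values were seen. Positions are from GENCODE vM21. Alternatives were DESeq2 1.42.0, limma-voom (limma 3.58.1), RLE size factors, no low-count filter, 1 fit of all 32 mice, a replicate block and leaving out each mouse. The edgeR fits were tested on simulated data. Of genes changed by a log2 of 1, 48 of 94 were called for NR in Alport males and 82 of 98 for Alport against control males on vehicle. At a log2 of 2 these were 91 of 106 and 102 of 102. A missing call for NR in Alport males therefore does not exclude a 2-fold change.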

Additional observations from a re-analysis of the deposited data

Results flagged for a closer look

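Of 80 sets of 4 mice (10 genes in 8 groups), 7 held a mouse with a gap to the others that is large against the range of the group on the log2 scale, where chance gives about 1 in 20. Cd44 was 65.2 CPM in male Alport vehicle replicate 2, where the other 3 mice had 37.4–38.8 CPM, and 22.9 CPM in female Alport vehicle replicate 2, where the others had 40.1–43.5 CPM. Spp1 was 6678 CPM in male Alport vehicle replicate 2, against 5640–5686 CPM. Krt20 was 5.80 CPM in female Alport NR replicate 4, against 16.6–19.4 CPM, and 1.73 CPM in female control NR replicate 1, against 0.946–1.03 CPM. Krt18 was 16.2 CPM in female control vehicle replicate 3, against 11.9–12.1 CPM, and 11.2 CPM in female control NR replicate 2, against 13.4–13.8 CPM.

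The change of Spp1 from control to Alport differed between the sexes on vehicle by a log2 of −1.05 in the test of the interaction (edgeR adjusted p = 0.0359), with 566.8 ± 66.5 CPM in male and 1645 ± 234 CPM in female controls and 5912 ± 511 CPM in male and 8761 ± 1906 CPM in female Alport mice (mean ± SD, n = 4 each).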

How the results depend on the processing

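In vehicle-treated mice of each sex all 10 genes were called higher in Alport mice under every alternative run, and in NR-treated females under every one but limma-voom (9). Of NR-treated against vehicle-treated Alport females, DESeq2 called 3 of the 10 (edgeR 0). Of NR-treated against vehicle-treated male controls, limma-voom called 2 (edgeR 4), without Lcn2 (adjusted p = 0.172) and Krt20 (adjusted p = 0.0615), and with all 32 mice Vcam1 was at an adjusted p of 0.129. Of Alport against control males on NR, where edgeR called 0, DESeq2 and the fit of all 32 mice each called 8, no low-count filter 5 and the replicate block 6; all genes called were 1361, 4565, 191 and 377 against 0. With all 32 mice, 2 of the 10 were called for NR in Alport mice of both sexes (main 1), 0 for the sex-genotype interaction (main 1, RLE size factors 0), 3 between control sexes (main 6) and 1 between Alport sexes (main 0, DESeq2 2, no filter 1). Where no count over all genes stands beside them, these counts describe the 10 genes alone. The causes were not tested. All genes called for NR in Alport females were 695 by DESeq2 against 75.

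Leaving out 1 mouse gave 0–7 called genes for NR in male controls, 0–1 for NR in Alport males and in Alport females, 0–4 in both sexes, 0–2 for Alport against control males on NR, 0–1 for the sex-genotype interaction, 0–5 for NR and genotype in males, 3–6 between control sexes and 0–2 between Alport sexes.

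Directions that reversed belonged to values that missed the threshold. NR in Alport males gave −0.029 by limma-voom and −0.079 with the replicate block for Krt20, and −0.089 and −0.17 for Sox9. NR in female controls gave 0.080 and 0.067 for Vcam1 under these. Clu in the sex-genotype interaction was 0.00052 by RLE size factors and 0.043 with all 32 mice. Havcr1 between control sexes was −0.0016 by DESeq2, −0.11 by limma-voom and with the replicate block, and −0.011 with all 32 mice. Leaving out 1 mouse moved the log2FC across 0 for NR in Alport males in Krt18 (−0.17 to 0.57), Krt20 (−0.45 to 0.40), Sox9 (−0.70 to 0.41) and Clu (−0.30 to 0.020), and in Alport females in Krt18 (−0.044 to 0.43). For NR in controls it did so in male Krt8 (−0.026 to 0.20) and in female Lcn2 (−0.24 to 1.28), Krt8 (−0.030 to 0.099), Krt18 (−0.053 to 0.11), Vcam1 (−0.20 to 0.35), Cd44 (−0.15 to 0.33) and Spp1 (−0.084 to 0.17). The same was seen for Krt18 in Alport against control males on NR (−0.095 to 1.08), Clu in the sex-genotype interaction (−0.23 to 0.069), Sox9 (−1.04 to 0.059, males) and Krt18 (−0.031 to 0.42, females) in the NR-genotype interaction, Havcr1 between control sexes (−0.66 to 0.30), and Krt20 (−0.37 to 0.18), Vcam1 (−0.034 to 0.24) and Sox9 (−0.29 to 0.21) between Alport sexes.

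The replicate numbers of 32 same-numbered pairs gave correlations of −0.198 to 0.447, 12 of them over 0.1, and in no comparison were all pairs over 0.1. Pairs of Alport and control mice gave −0.032 to 0.268 and were mostly above 0. Pairs of NR-treated and vehicle-treated mice gave −0.198 to 0.447, on both sides of 0. In vehicle-treated females, the pairs of Alport and control mice gave −0.032, 0.216, 0.258 and 0.221. The paper states that treatment groups were balanced across litters. Whether same-numbered mice share a litter or a batch is not given in the sources, and these correlations cannot settle it. The main tests do not pair mice, and the block was kept as an alternative. On the authors' log10(CPM + 1), as few as 4 of 8 groups kept their rank by mean (Havcr1 and Krt8), while for others, such as Lcn2, all 8 did. Spearman's correlation of the group means on the 2 scales was 0.952–1 over the 10 genes. The cause was not tested. In Alport mice alone the median r between the 10 genes was 0.494, against 0.854 over all mice. Krt20 in male controls rests on 3 to 14 counts a library, which limits the precision of its folds.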
